A study of Drosophila melanogaster with 3 samples.

Results

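The 36 genes described here encode proteins of the Hippo growth control pathway, of apical-basal and planar cell polarity, and of cell junctions in Drosophila melanogaster. They were chosen by name, through no threshold on the peaks but with earlier results of these data known, and all 36 were found among the 13945 protein-coding genes on the chromosome arms analysed. The list holds 16 Hippo genes, 9 apical-basal polarity genes, 7 junction genes and 4 core planar polarity genes. The data are chromatin immunoprecipitation sequencing (ChIP-seq) peaks of CG18262, which the labels treat as a transcription factor, fused at its C-terminus to enhanced green fluorescent protein (eGFP). Whole embryos aged 0 to 16 hours and of mixed sex, all from 1 transgenic line, were immunoprecipitated with an antibody against GFP in 3 biological replicates. There is 1 group and no second condition, so no test between groups was possible. Peaks from all tissues of the embryo are mixed in each sample, and neither an untagged line nor expression was analysed here. Enrichment by the fusion protein and enrichment that open chromatin gives without it therefore cannot be told apart.

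In the Hippo pathway the kinase Hippo, with its scaffold Salvador, activates the kinase Warts and its partner Mats, and Warts keeps the coactivator Yorkie out of the nucleus. Yorkie enters the nucleus when the kinases are less active and, with the DNA-binding protein Scalloped, switches on genes for growth and survival. The cascade is controlled from the cell surface by the giant cadherins Fat and Dachsous and from the apical membrane by Merlin, Expanded, Kibra and Crumbs, so it shares proteins with the machinery that gives epithelial cells an apical and a basal side. In that machinery the Crumbs and Par complexes mark the apical side, the Scribble group acts basolaterally, adherens and septate junctions join the cells, and the core planar polarity proteins orient them within the sheet. In the embryo these proteins act in the ectoderm and its derivatives, among other epithelia.

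A promoter peak here has its summit within 500 bp of an annotated start site of the gene. An interior peak has its summit inside the gene and more than 500 bp from every start site of a protein-coding gene. The main list is the authors' list of 8529 peaks thresholded by the irreproducible discovery rate, a measure of how alike peaks rank in replicates. Single peaks of the list could still rank far apart in the 3 replicates, as at Rassf (25391, 5936 and 4585). Ranks run from 1 for the highest signal value, which is the authors' own value and is compared only within a list. The thresholded list held exactly the 8529 strongest of the 30000 peaks called on the pooled replicates, and each replicate list also held 30000 peaks. The replicate lists come from the same reads as the thresholded list, so they show the spread between replicates but do not check it independently. The read depth is unknown.

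Most members had a peak at a start site. Of the 36 genes, 22 had a promoter peak (61.1%, exact 95% interval 43.5 to 76.9), compared with 26.7% of all protein-coding genes. The interval covers counting error only, as do those of the classes below. The genes were chosen by name and not drawn at random, so it is no test against the share of all genes. With as many of the strongest peaks of each replicate taken alone, the number was 21 in replicate 1, 22 in replicate 2 and 20 in replicate 3 (mean 21 ± 1, SD, n = 3), where the shares of all genes were 26.7%, 27.9% and 26.7%. Of the 22 genes, 17 also had one in the strongest part of all 3 replicate lists (77.3%), compared with 73.6% of all genes with a promoter peak. This counts any promoter peak of the gene, which need not be the same peak in each list. Of the 29 member promoter peaks themselves, 14 were matched by one of the strongest peaks in all 3 lists. The same count over all promoter peaks is not given here. Of the 14 members with no thresholded promoter peak, mats and Nrx-IV had one in the strongest part of 2 replicate lists and the other 12 in none.

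**Figure D1:**
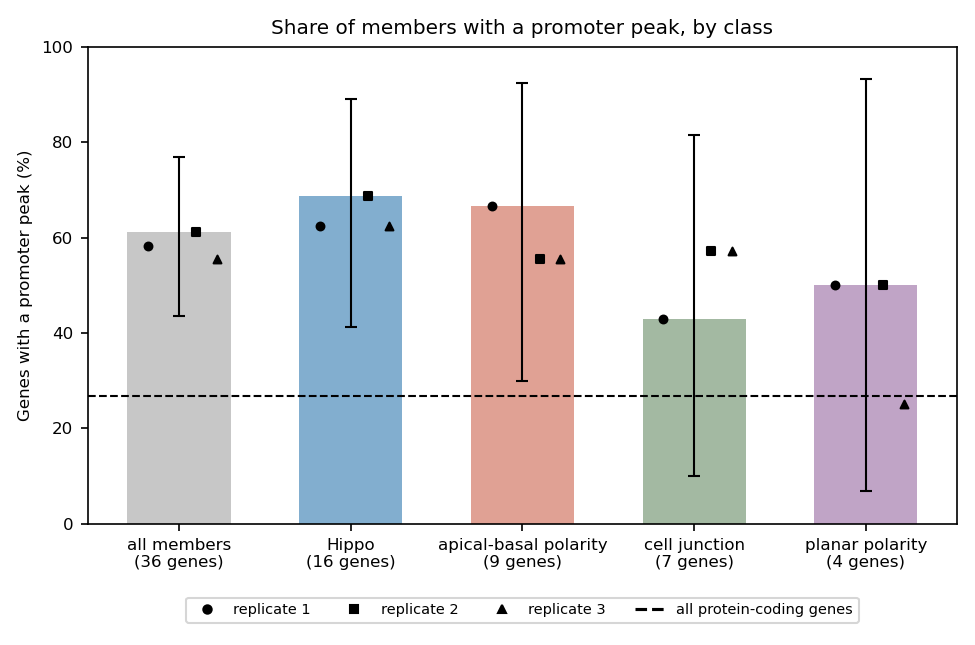
Share of genes with a promoter peak in percent (y axis) for all members and for each class (x axis). Bars give the thresholded list with exact 95% intervals, points the 3 replicate lists, and the dashed line all protein-coding genes at 26.7%. The share was 68.8% for Hippo, 66.7% for apical-basal polarity, 50% for planar polarity and 42.9% for junction genes, and the intervals of the classes overlap widely.

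The promoter peaks of the members were weaker at the median than those of all genes, while those of the Hippo genes, with a median rank of 3559, were close to them. The best promoter peak of the 22 genes had a median rank of 4710.5, compared with 3537.5 for all genes with a promoter peak. Of the 36 members 9 had a promoter peak among the 4264 strongest thresholded peaks, compared with 15.3% of all genes. As a share of genes with any promoter peak this was 9 of 22 members (40.9%), compared with 57.3% of all such genes. By class it was 7 of 11 for Hippo (63.6%), 1 of 6 for apical-basal polarity, 1 of 3 for junction and 0 of 2 for planar polarity genes. The median signal value of the 29 member promoter peaks was 423.6, compared with 508.9 for all promoter peaks. Their summits lay mostly upstream of the nearest start site, in 25 of 29 cases (86.2%), much like those of all genes (85.6%). The median distance from the start site was 201 bp for members and 166 bp for all genes.

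The count depended on the window and on how many replicates a peak was required in. With a window of 200 bp, 13 members had a promoter peak, compared with 18.3% of all genes. When a match in the strongest part of both other replicate lists was required, 17 members remained without replicate 1, 13 without replicate 2 and 13 without replicate 3, while the shares of all genes were 21.3%, 19.5% and 20.1%. Several peaks stood between start sites of neighbouring genes. When peaks within 500 bp of another gene's start site were left out, 15 members kept one, compared with 12.1% of all genes. The 7 members whose promoter peaks were all shared were app, sav, yki, Rassf, par-6, shg and dgo. They made up 31.8% of the 22 members with a promoter peak, compared with 54.7% of all genes with one.

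Genome organisation also differed between the members and other genes. The median length was 13.1 kb for the members and 2.17 kb for all genes. Of the members whose start sites stood more than 1000 bp from those of other genes, 12 of 21 had a promoter peak, compared with 16.2% of all such genes. Among those with a close neighbour it was 10 of 15, compared with 40.8%. By length the counts were 10 of 16 under 10 kb, 8 of 14 from 10 to 50 kb and 4 of 6 over 50 kb, and the shares of all genes in these classes were 24.6%, 39.9% and 37.1%. By number of start sites the counts were 13 of 23 with 1, 4 of 7 with 2 or 3 and 5 of 6 with 4 or more. The shares of all genes there were 20.9%, 40.6% and 60.9%. The member share was thus above that of all genes in each of these classes, with few members in each.

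Of the Hippo genes 11 of 16 had a promoter peak (68.8%, exact 95% interval 41.3 to 89.0), and 7 of them had one among the 4264 strongest peaks. The strongest belonged to app, which encodes the palmitoyltransferase Approximated that acts in Fat signalling (FBgn0260941, on 3L from 12206238 to 12266841, minus strand). Its peak had the summit at 12267040, 199 bp upstream of the start site, with a signal value of 1564 and rank 965. In replicates 1, 2 and 3 the matched peak ranked 1059, 1020 and 916, a narrow range. The start site of CG32100 lies within 500 bp of the same summit.

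The cadherin gene ft, whose product Fat restrains growth at the cell surface, had its peak 484 bp upstream of its start site (2L, summit 4222280, signal value 1218, rank 1416). Replicate ranks were 1535, 2337 and 1074. Its ligand gene ds had no promoter peak, but a strong peak lay just outside the window, 576 bp upstream of the start site (2L, summit 715559, signal value 2154, rank 577). That peak ranked 585, 682 and 550 in the replicates, strong in each list, and only the width of the window left ds out. For fj, the Golgi kinase that modifies these cadherins, the peak was near the end of the list (2R, summit 18232808, signal value 254.7, rank 8447), 47 bp downstream of the start site. It ranked 5621, 9481 and 12540 in the replicates and was in the strongest part of replicate 1 alone. The casein kinase gene dco (discs overgrown) had a promoter peak 336 bp upstream (3R, summit 31061546, signal value 593.2, rank 3559), with replicate ranks of 5761, 4483 and 2868.

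All 3 genes for the apical scaffolds that relay signals to Hippo had promoter peaks. Mer, the gene for Merlin (FBgn0086384, X from 19689697 to 19693500, minus strand), had one 107 bp downstream of its start site (summit 19693393, signal value 1267, rank 1343). The replicate ranks were 1216, 1481 and 1450. A second summit stood 199 bp away, 92 bp upstream of the start site, at rank 5279. The peak of ex (Expanded, FBgn0004583, 2L from 431227 to 448701) lay 201 bp upstream (summit 431026, signal value 1021, rank 1808), where replicates 1 and 2 ranked it 955 and 1293 and replicate 3 ranked it 4864. For kibra (FBgn0262127, 3R from 14697689 to 14724261, minus strand) the peak lay 65 bp upstream (summit 14724326, signal value 454.3, rank 4800). Its match in replicates 2 and 3 ranked 4576 and 4150, and no summit of replicate 1 lay within 100 bp, although another promoter peak there ranked 4985.

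The kinase cassette was uneven. The peak at hpo, the gene of the Hippo kinase, lay 69 bp upstream of its start site (2R, summit 19496925, signal value 342.4, rank 6378), with replicate ranks of 8471, 6744 and 6123. At sav it lay 116 bp upstream (3R, summit 23061420, signal value 554.7, rank 3836), shared with Ublcp1. Replicates 2 and 3 ranked it 3304 and 4187, and replicate 1 held no promoter peak of this gene. Warts itself, encoded by wts, had no thresholded promoter peak, and its best in the pooled list ranked 14816. For mats the nearest thresholded summit was 506 bp from a start site, inside the gene, at rank 3434. It ranked 3416, 3512 and 3714 in the replicates, just past the window, and in replicates 1 and 2 the same peak fell within the window.

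Of the 2 genes for the nuclear effectors, yki had a promoter peak and sd did not. The peak of yki, which encodes Yorkie, lay 294 bp upstream of its start site (2R, summit 24068779, signal value 1302, rank 1284). Its replicate ranks were 1641, 1771 and 933. It lies inside the neighbouring gene Gpat4 and within 500 bp of a start site of that gene, as does a weaker summit 205 bp away at rank 5164. The DNA-binding partner gene sd has 7 annotated start sites, and the best pooled promoter peak there ranked 13743. Rassf, which encodes an antagonist of Hippo, had a peak 176 bp upstream (3R, summit 23118107, signal value 362.0, rank 6038), shared with CenB1A. Its match ranked 25391 in replicate 1, where the best promoter peak of the gene ranked 12504, and 5936 and 4585 in replicates 2 and 3. The gene jub, for the LIM protein Ajuba that inhibits Warts, had no promoter peak in the thresholded or pooled list, and the nearest thresholded summit was 8767 bp from its start site.

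**Figure D2:**
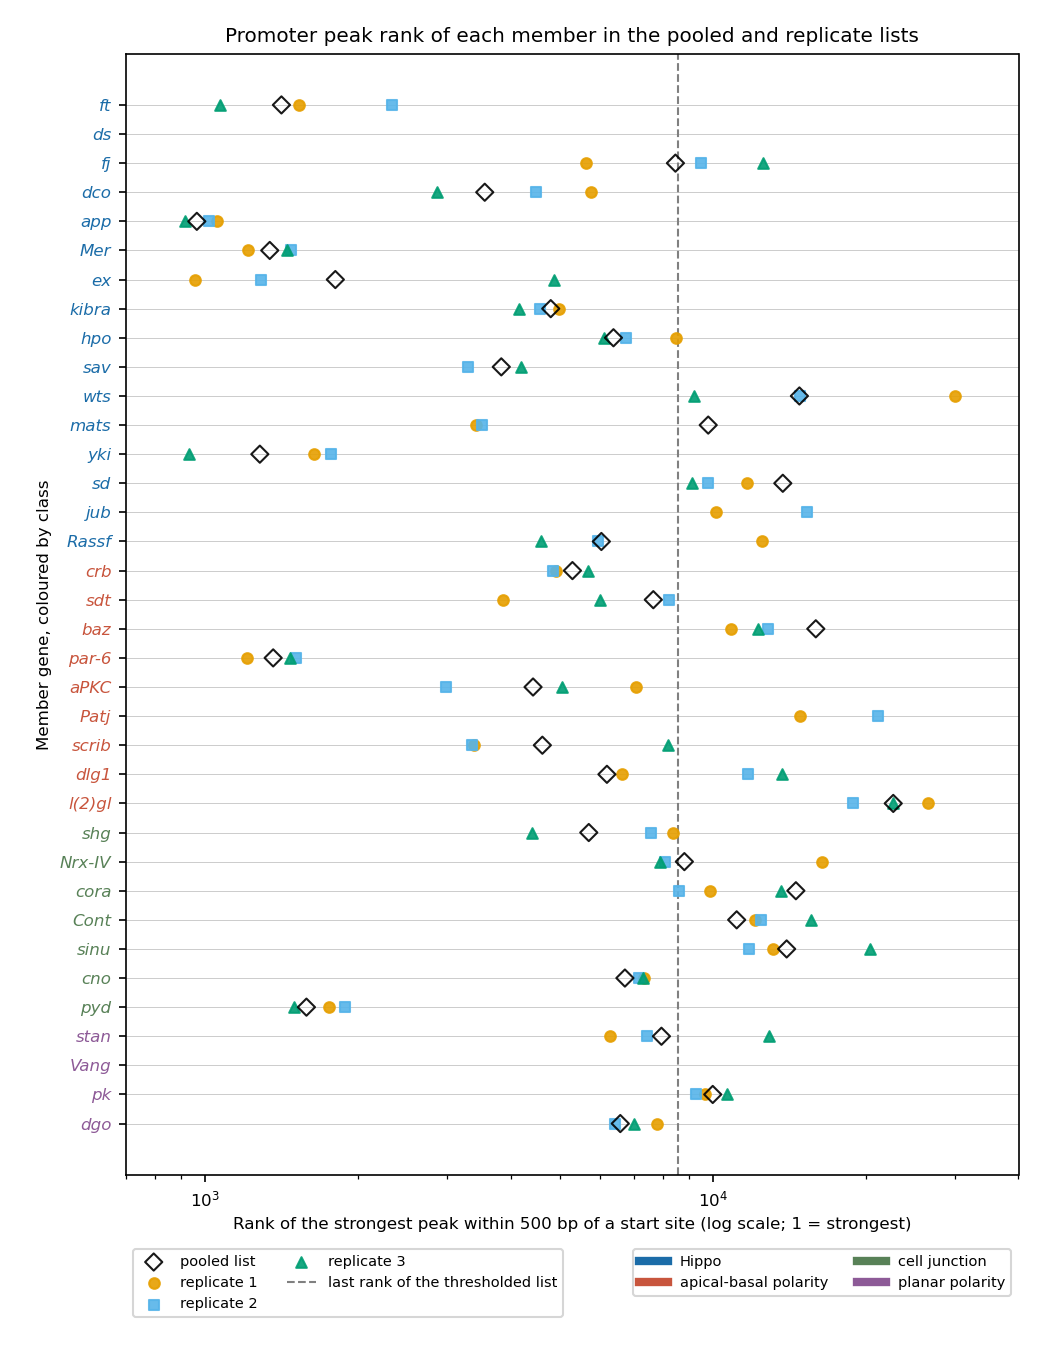
Rank of the strongest promoter peak of each member (y axis, coloured by class) in the pooled list and in the 3 replicate lists (x axis, log scale, 1 is the strongest). Genes left of the dashed line at rank 8529 have a peak in the strongest part of that list. The points of app, Mer, par-6 and pyd lie close together at ranks of 916 to 1885, those of fj, Rassf, dlg1 and stan straddle the line, and ds and Vang have no point.

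Of the apical-basal polarity genes 6 of 9 had a promoter peak (66.7%, exact 95% interval 29.9 to 92.5), and only par-6 had one among the 4264 strongest peaks. The gene par-6, for the adaptor of the Par complex (FBgn0026192, X from 17703352 to 17707096), had its peak 445 bp upstream (summit 17702907, signal value 1256, rank 1364), with replicate ranks of 1210, 1516 and 1474. The summit is shared with CG8188, inside which it lies. For aPKC, the atypical protein kinase C of that complex, the stronger of 2 promoter peaks (2R, summit 14963162, signal value 488.2) ranked 4430 and was shared with ckn, and the other lay at an internal start site at rank 8163. The stronger one ranked 2979 and 5047 in replicates 2 and 3 and had no match in replicate 1. The third gene of the complex, baz (Bazooka), had a best pooled promoter peak at rank 15960.

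Within the Crumbs complex the transmembrane protein gene crb had a promoter peak 124 bp upstream (3R, summit 24294954, signal value 411.2, rank 5296), ranked 4908, 4844 and 5682 in the replicates. Its scaffold partner gene sdt (Stardust) had one 227 bp upstream (X, summit 8178322, signal value 282.8, rank 7641). The matched peak ranked 9664, 10758 and 5996, so only replicate 3 had this site in its strongest part, although other start sites of sdt had a peak there in replicates 1 and 2. Patj, for the multi-PDZ scaffold, had none in the thresholded or pooled list and its nearest thresholded summit was 3365 bp away. In the Scribble group scrib had a peak 229 bp upstream (3R, summit 26536121, signal value 471.3, rank 4621), with replicate ranks of 3389, 3364 and 8168. The peak of dlg1 (Discs large) stood just inside the window, 499 bp upstream of an internal start site. Its summit on X was at 11384381, with a signal value of 353.5 and rank 6192. The matched peak ranked 6958, 9059 and 5717 in the replicates, but in replicates 2 and 3 it lay outside the window. The best promoter peak of dlg1 there ranked 11740 and 13673, so only replicate 1 had one in its strongest part. The gene l(2)gl, for Lethal giant larvae, had its best pooled promoter peak at rank 22672, and its nearest thresholded summit was 45556 bp away.

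Of the junction genes 3 of 7 had a promoter peak (42.9%, exact 95% interval 9.90 to 81.6). All 3 adherens junction genes had a promoter peak, and none of the 4 septate junction genes did. With 4 genes a count of 0 allows a share of up to 60.2% (exact 95% interval). So few genes, chosen by name, cannot decide whether the kinds of junction differ, and this was not tested. E-cadherin, encoded by shg, had a peak 187 bp upstream (2R, summit 21057384, signal value 383.7, rank 5703), shared with cpa and ranked 16419, 8724 and 4406 at its match in the replicates. The actin-binding linker gene cno (Canoe) had one at an internal start site (3R, summit 5198549, signal value 325.2, rank 6718), with replicate ranks of 9252, 7170 and 7278. The gene pyd, for the ZO-1 relative Polychaetoid (FBgn0262614, 3R from 8827068 to 8931896, minus strand), had 4 promoter peaks over its 6 start sites. The strongest lay 486 bp upstream of an internal start site (summit 8867921, signal value 1123, rank 1586) and ranked 1757, 1885 and 1499 in the replicates.

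The septate junction genes were Nrx-IV and Cont, for adhesion proteins, cora, for the FERM protein Coracle, and sinu, for a claudin. Weaker promoter peaks were present at all 4 in the pooled list, at ranks 8796 for Nrx-IV, 11150 for Cont, 13985 for sinu and 14582 for cora. Nrx-IV was therefore just below the threshold, and its best promoter peak ranked 16399, 8061 and 7873 in the replicates. No septate junction gene had an interior peak. Of these genes sinu (2.13 kb) and Cont (5.71 kb) are under 10 kb, where 3.48% of all genes had one. Nrx-IV (10.5 kb) and cora (14.7 kb) are from 10 to 50 kb, where 45.0% did. In the whole pooled list 32 of the 36 members had a promoter peak, compared with 44.7% of all genes, and the 4 without were ds, jub, Patj and Vang.

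Of the core planar polarity genes 2 of 4 had a promoter peak, both at low ranks. The peak of stan, for the cadherin Flamingo, lay 30 bp downstream of its start site (2R, summit 10673375, signal value 272.6, rank 7928), with replicate ranks of 6285, 7437 and 12934. At dgo (Diego) the peak lay 22 bp upstream (2R, summit 10819906, signal value 332.6, rank 6579), shared with the proteasome gene Prosbeta5, and ranked 7768, 6426 and 7016. The gene pk (Prickle) had a strong peak 719 bp upstream of one of its start sites at rank 714, which fell outside the window. Vang, for the membrane protein Van Gogh, had no peak within 500 bp of its start site in any of the 5 lists, and its nearest thresholded summit was 7444 bp away. With 4 genes the share has an exact 95% interval of 6.76 to 93.2%.

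Interior peaks were frequent in the long members. Of the 36 genes 18 had at least 1 (50%), compared with 9.75% of all genes, and the number was 18 in each of the 3 replicate lists taken alone. Long genes offer more room for such peaks, and length moved with this count. Of members over 50 kb 6 of 6 had one, compared with 61.9% of all genes of that length, and of those from 10 to 50 kb 10 of 14, compared with 45.0%. Among members under 10 kb it was 2 of 16, dco and mats, compared with 3.48%. The mats summit lay 506 bp from a start site, just past the window. Counted per length, interior peaks numbered 0.976 per 10 kb in members of 10 to 50 kb, compared with 0.529 in all genes of that length, and 0.655 compared with 0.370 over 50 kb. Under 10 kb the 2 peaks gave 0.318 per 10 kb, compared with 0.171. Some of these summits lie near each other, so they are not separate observations.

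**Figure D3:**
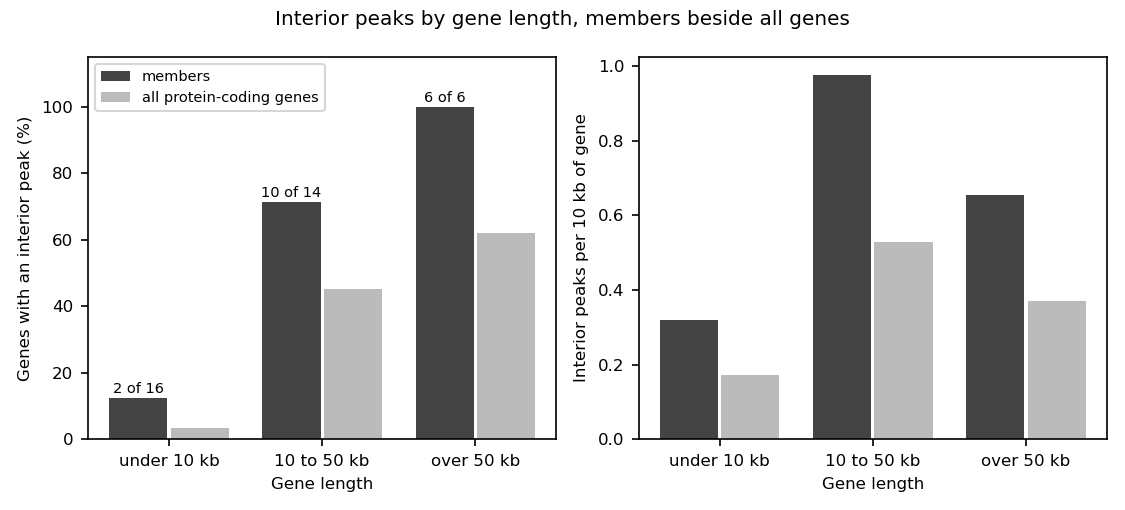
Left, share of genes with an interior peak in percent by gene length, for members (dark bars, with counts) and all protein-coding genes (light bars). Right, interior peaks per 10 kb of gene in the same classes. The dark bars are above the light ones in every length class, but under 10 kb they rest on 2 peaks, at dco and mats.

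The 66 interior peaks were placed like those of other genes. Introns held 63 of them (95.5%), compared with 96.3% over all genes. Coding sequence held 0 of 66, compared with 0.424% over all genes. A count of 0 allows up to about 4.55% here (3 counts in 66, not an exact interval). In the 5' 50% of the gene lay 49 (74.2%), compared with 67.6% over all genes. The median signal value was 526.4, compared with 507.2 for all interior peaks. In all 3 replicate lists 45 of the 66 were matched by one of the strongest peaks. The same count over all interior peaks is not given here, so this one cannot be called high or low.

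The 5 members with the strongest interior peaks were baz, cno, pyd, kibra and dco. At baz (FBgn0000163, X from 17160006 to 17200728, plus strand), which encodes the Par-3 protein that organises apical junctions, the summit lay at 17178698, 18.7 kb downstream of the start site. The annotation places it in a 5' UTR exon. Its signal value was 4435 and its rank 121, the highest of any member peak, and it ranked 112, 89 and 161 in the replicates. This gene thus had no promoter peak but 6 interior ones. In cno a pair of summits lay 1.92 and 4.997 kb from the outermost start site (3R, 5215532 and 5212459), with signal values of 2525 and 2453 and ranks 431 and 450. The first ranked 234, 349 and 715 in the replicates and the second 368, 471 and 546.

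In pyd the strongest interior peak lay in an intron, 4.0 kb from the outermost start site (summit 8927896, signal value 2130, rank 586), with replicate ranks of 622, 651 and 563. A further 8 interior peaks spread from 1.52 to 82.3 kb, more than in any other member, but pyd is also the longest member at 104.8 kb. For kibra the strongest of 6 lay 9.51 kb from the start site (summit 14714747, signal value 1994, rank 650) and ranked 476, 741 and 730. In dco, a gene of 7.13 kb, the single interior peak lay 2.01 kb in (summit 31059200, signal value 1958, rank 676) and ranked 736, 632 and 671. The interior peaks of kibra and dco were thus much stronger than their promoter peaks at ranks 4800 and 3559.

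Other Hippo members also had peaks inside the gene. In ex there were 4, and those at 10.9 and 9.86 kb ranked 813 and 947, above its promoter peak. Warts, with no promoter peak, had 6 interior peaks in wts at ranks of 2637 to 6969. The strongest of these lay in the 3' UTR at the far end of the gene. The cadherin gene ds had 2, app had 1 in addition to its promoter peaks, and sd had 1 at rank 7407. In the planar polarity gene pk 4 summits stood between 17.3 and 20.8 kb from the outermost start site, led by those at ranks 714 and 1144. In stan 3 lay within 8.13 kb of the start site, the strongest at rank 2402.

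Apical-basal polarity genes held 25 of the 66 interior peaks, in 6 genes of 18.5 to 67.7 kb. All 6 are longer than the member median of 13.1 kb, and the classes were not compared at like length. In scrib there were 7 at ranks of 3137 to 8313, in sdt 6 at ranks of 4035 to 6767, and in dlg1 3 led by one at rank 1756. In crb a summit 996 bp downstream of the start site ranked 1642, with replicate ranks of 1647, 1613 and 1838, so it was stronger than the promoter peak of that gene. Of the 36 members 28 had a promoter or an interior peak, compared with 31.3% of all genes. This count was not split by length, although interior peaks are more frequent in long genes. The median length was 13.1 kb for members and 2.17 kb for all genes. Neither was found at 8 members: jub, Patj, l(2)gl, Nrx-IV, cora, Cont, sinu and Vang.

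**Figure D4:**
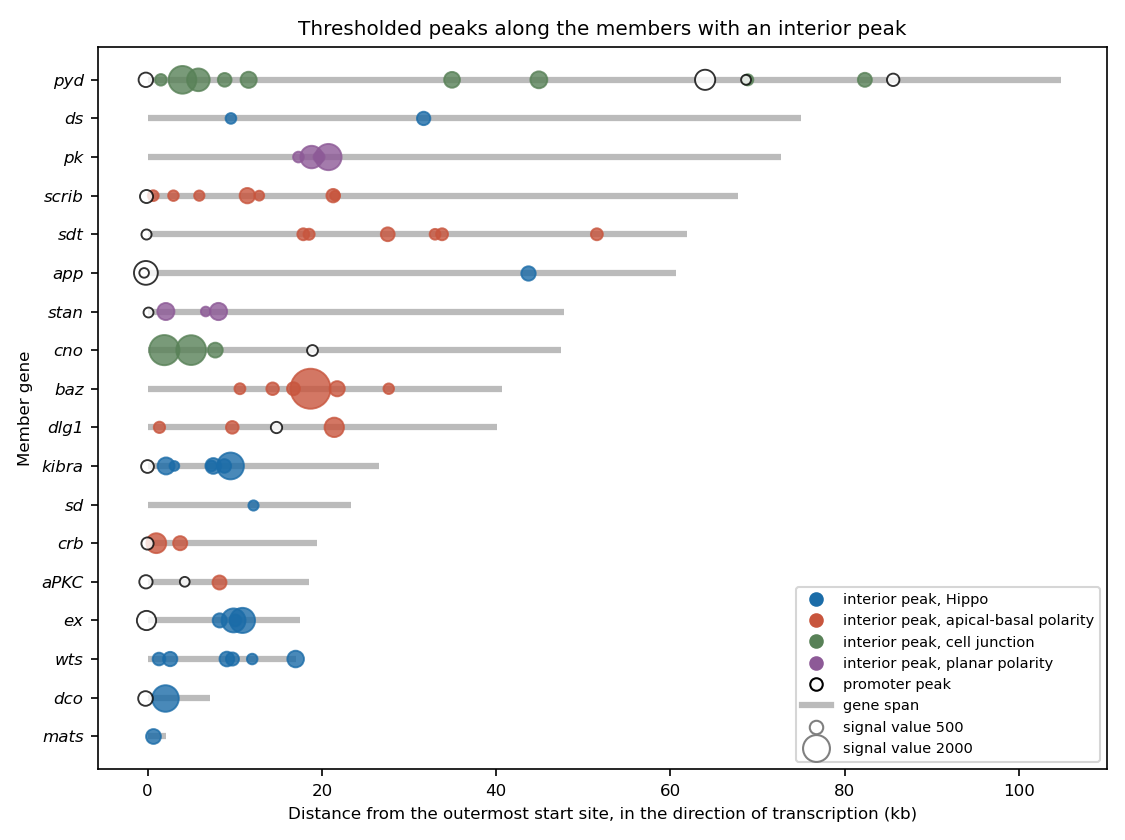
Position of each thresholded peak (points) along the 18 members with an interior peak (grey lines), in kb from the outermost start site in the direction of transcription. Filled points are interior peaks coloured by class, open points are promoter peaks, and point area is proportional to the signal value. The largest point is that of baz at 18.7 kb, and the 4 points of pk lie between 17.3 and 20.8 kb.

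Some summits came in close pairs. Within the members 7 pairs of summits in the thresholded list were at most 250 bp apart, at app, Mer, yki, ex, kibra, pyd and scrib, and their spacing was 199 to 219 bp. Over the whole list there were 749 such pairs and none was closer than 199 bp. The count of peaks in a gene therefore includes neighbouring summits of 1 enriched stretch, while the count of genes does not depend on them.

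The sequence under the summits held few of 10 short motifs and repeats counted within 50 bp on either side of the summit, whichever strand they were on. The 29 member promoter windows were 67.3% A and T at the median, compared with 69.3% for all promoter peaks. GGAATG, the core bound by Scalloped and its vertebrate TEAD relatives, was in 0 of 29 promoter windows, compared with 3.10% of all promoter peaks. A count of 0 allows up to about 10.3% here (3 counts in 29, not an exact interval). The same core was in 4 of 66 interior windows (6.06%), compared with 3.17% of all interior peaks. TATCGATA, bound by the replication-related factor Dref, was in 1 promoter window (3.45%, compared with 3.29% of all) and in 1 interior window (1.52%, compared with 0.148% of all), both at kibra. ATCGAT, which lies within that motif, was also in a window of sdt, and so in 1 of 29 promoter windows and 2 of 66 interior windows, compared with 7.29% and 2.08%. AAAAAAAA, read as a run of T on the other strand, was in 3 promoter windows (10.3%, compared with 6.48%) and 6 interior windows (9.09%, compared with 8.42%).

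Of the others, CAGCTG, an E-box, was in 0 promoter and 2 interior windows (3.03%, compared with 2.58% of all interior peaks), and the repeat CACACACA in 0 and 1. No member window held GGTCACAC of M1BP, GAGAGAG of GAGA factor, AACCGGTT of Grainyhead or CAGGTAG of Zelda. Over all thresholded peaks these 4 were in 0.762%, 0.985%, 0.106% and 0.387% of windows. A match is a string of letters and no measured site.

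The windows below, which reach 50 bp to either side of the summit and are read on the plus strand, are shown because they come from the strongest promoter peak of a class and the strongest interior peak, among the windows that could be printed, or because they hold TATCGATA or GGAATG. Sequences are from the RefSeq genome of release 6 of the assembly, which is dm6, and capitals mark any of the 10 motifs. The first 4 represent Hippo, apical-basal and junction promoter peaks and interior peaks, and none of them holds a motif. The other 5 were chosen after the matches were seen.
app promoter, chr3L:12266990-12267090: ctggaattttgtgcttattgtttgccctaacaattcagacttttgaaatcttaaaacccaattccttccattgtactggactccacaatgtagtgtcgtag
scrib promoter, chr3R:26536071-26536171: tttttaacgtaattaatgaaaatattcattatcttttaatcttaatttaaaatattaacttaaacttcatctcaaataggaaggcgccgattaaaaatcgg
pyd promoter, chr3R:8867871-8867971: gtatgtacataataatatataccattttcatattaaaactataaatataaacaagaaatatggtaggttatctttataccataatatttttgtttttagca
cno interior, chr3R:5215482-5215582: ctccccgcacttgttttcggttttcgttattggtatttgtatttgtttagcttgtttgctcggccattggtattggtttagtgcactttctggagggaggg
kibra promoter, chr3R:14724276-14724376: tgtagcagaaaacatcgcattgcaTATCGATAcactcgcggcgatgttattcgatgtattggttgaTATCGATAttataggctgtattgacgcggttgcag
kibra interior, chr3R:14721139-14721239: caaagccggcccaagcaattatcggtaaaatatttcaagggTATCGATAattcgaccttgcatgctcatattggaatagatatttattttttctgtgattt
wts interior, chr3R:30794568-30794668: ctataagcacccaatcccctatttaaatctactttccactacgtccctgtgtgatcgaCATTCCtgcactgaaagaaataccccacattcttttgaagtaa
scrib interior, chr3R:26536949-26537049: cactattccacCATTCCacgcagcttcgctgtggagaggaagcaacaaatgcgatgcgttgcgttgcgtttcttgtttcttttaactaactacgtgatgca
scrib interior, chr3R:26549108-26549208: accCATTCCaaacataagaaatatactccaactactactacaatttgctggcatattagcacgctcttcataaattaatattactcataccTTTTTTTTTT

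The windows differ in composition. That of pyd is 81.2% A and T and that of the strongest cno peak 55.4%. The window at the kibra promoter holds TATCGATA at 2 places, and the weaker interior peak of the same gene, at rank 8197, holds it at 1. In the windows of wts and scrib the Scalloped core reads CATTCC on the plus strand, and these peaks ranked 6969, 6709 and 7914. A further window with this core, at the 3' end of wts, lies in a UTR and is not printed.

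Other genes of these pathways, taken from wider lists of names, also had promoter peaks. Of 64 names 62 were matched, and 30 of these genes had a promoter peak (48.4%) and 25 an interior peak (40.3%), compared with 26.7% and 9.75% of all protein-coding genes. These genes were also longer, with a median length of 4.55 to 16.9 kb by list, compared with 2.17 kb for all genes. Of all genes under 10 kb 3.48% had an interior peak, and of those from 10 to 50 kb 45.0%. Among other Hippo pathway genes 7 of 15 had a promoter peak. The best ranks were at mask, a cofactor of Yorkie (3537), Schip1 (5231) and GckIII, a kinase (6843). Of 6 target genes of Yorkie 3 had one, namely E2f1, a cell cycle activator (rank 1842), Diap1, an inhibitor of cell death (5547), and wg, the Wnt ligand (7802), and 5 of the 6 had an interior peak. The median length of these targets was 16.9 kb, and of all genes of 10 to 50 kb 45.0% had an interior peak. Among other apical-basal polarity genes it was 8 of 11, led by Moe, which links membrane and actin (1073), wdb, a phosphatase subunit (3136), and 14-3-3zeta (4567).

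Among other planar polarity genes 3 of 7 had a promoter peak, fy at rank 4941, fz, the Frizzled receptor, at 5789 and nmo, a kinase, at 7677. Among other junction genes it was 9 of 23. The best ranked were Atpalpha, the sodium pump subunit of septate junctions (612), Gli, for Gliotactin of tricellular junctions (1094), and Tsf2, a transferrin needed for septate junctions (1269). Atpalpha ranked above every member promoter peak, so genes of septate junctions were not uniformly without promoter peaks. The peaks at mask, Schip1, fy, nmo and Tsf2 were shared with a start site of another gene.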

How the data were processed

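The authors deposited narrowPeak lists on dm6 for 3 replicates, for the pooled replicates and for a set thresholded by the irreproducible discovery rate. Per the file listings deposited with the samples, the replicate and pooled lists derive from the replicate alignments and 1 further file that the control-normalized tracks also use, and the thresholded list derives from the other lists. No aligner or peak caller is named in those sources. The signal value of each peak is as the authors deposited it, on a scale that is not stated, and it was used only within a list. Summit offsets are other values of the deposited lists.

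Summits were placed on the Ensembl release 115 annotation (BDGP6.54) of 13945 protein-coding genes on 2L, 2R, 3L, 3R, 4 and X, and no peak ended beyond the RefSeq sequence of its arm. Peaks in 2 lists matched when summits lay within 100 bp. Of the 8529 strongest peaks of each replicate, those on these arms entered the counts (8505, 8507 and 8529). Python 3.11.15, pandas 2.3.3, numpy 2.4.6 and scipy 1.17.1 were used. Gene assignment was tested on simulated summits. Every member was accounted for. By the rule for named genes, position, signal value and ranks were given for each member with a promoter peak and for the strongest interior peaks of 5 members, and the 3 best genes of each wider list were named. Sequence was to be shown for the strongest promoter peak of each class and the strongest interior peak, but windows on 2R or touching a UTR were replaced by the next, and no planar polarity window was left. Those with TATCGATA or GGAATG were chosen after the matches were seen. The members, the lists and the motifs were chosen with earlier results of these data known.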

Additional observations from a re-analysis of the deposited data

How the results depend on the processing

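The number of members with an interior peak stayed within 1.5 times its value of 18 under every alternative tried (16 to 22). The share of all genes with one ran from 6.77% with the 4264 strongest peaks to 18.1% in the whole pooled list. The number of members with a promoter peak (22) fell to 9 with the 4264 strongest peaks and to 13 with a window of 200 bp. The shares of all genes were then 15.3% and 18.3%. Without any 1 replicate the number of members was 13 to 17, compared with 19.5% to 21.3% of all genes. For Hippo genes (11) it was 7 with the strongest peaks, with the 200 bp window and with shared peaks left out, and 7 to 10 without 1 replicate. For apical-basal genes (6) it was 1 and 2, and 3 to 4 without 1 replicate. Junction genes (3) numbered 1 with the strongest peaks, 7 in the whole pooled list and 1 to 2 without 1 replicate, and planar polarity genes (2) 0 with the strongest peaks, 1 in replicate 3 alone, 1 with shared peaks left out and 1 to 2 without 1 replicate. Member genes held 0.868 summits per 10 kb, compared with 0.533 for all genes. The member value was 0.428 with the strongest peaks (0.262 for all genes), 3.34 in the pooled list (2.12) and 0.926 in replicate 1 alone (0.566). It was 0.625 to 0.637 without 1 replicate (0.381 to 0.397 for all genes), and the window does not enter it. The strongest, pooled and left-out-replicate settings hold fewer or more peaks by construction. The cause of the other differences was not tested. No paired analysis was possible because all samples form 1 group.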
